A study of Mus musculus with 11 samples.

Results

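Hearts of mice labelled HFD+STZ were compared with hearts of mice labelled chow, across all genes. The comparison used 7 of the 11 libraries of the series, 4 of HFD+STZ and 3 of chow, chosen by the group in the sample titles. HFD commonly abbreviates a high-fat diet and STZ streptozotocin, which destroys insulin-producing beta cells, but the labels leave both terms unexplained. Both groups were C57BL/6, the tissue was whole heart, and every sample carried a time of 26 weeks. The labels give no dose, diet composition, age, blood glucose or body weight, and do not say whether hearts were pooled or whether either group received a virus. The other 4 libraries combined HFD+STZ with METTL3 given by AAV, and entered the filter on low counts, the scaling and the estimate of the spread between replicates, but not the contrast. Nothing in the labels says how replicates were obtained, and the spread that p-values are set against may therefore be technical.

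The heart draws most of its energy from fatty acids. Lipoprotein lipase frees them from triglyceride in the capillary, CD36 and fatty acid binding proteins carry them inwards, the carnitine shuttle brings them into mitochondria, and beta-oxidation shortens them there. Genes at each of these steps are targets of the PPAR nuclear receptors, which fatty acids activate. When insulin is scarce, glucose entry and pyruvate oxidation fall, and pyruvate dehydrogenase kinase 4, made by Pdk4, is a main brake on the latter. Glucocorticoids, which rise in poorly controlled diabetes, act on the heart through their own nuclear receptor.

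Total counts ran from 14323454 to 16027937 in chow and from 15497706 to 16952639 in HFD+STZ. A library of each group stood apart. Chow replicate 3 had counts in 15734 genes, against 19814 to 20769 in the other libraries. Mitochondrial genes took 9.28% of its counts, against 25.3% and 27.4% in the other chow libraries and 28.6% to 32.5% in HFD+STZ, and ribosomal protein genes took 4.99% of its nuclear counts, against 1.48% to 1.97% elsewhere. HFD+STZ replicate 1 lay beside chow replicates 1 and 2 on the second principal component, at -32.5 against -37.0 and -32.4, while HFD+STZ replicates 2 to 4 lay at 38.0, 34.6 and 21.8. The sample code numbers of the labels likewise place HFD+STZ replicate 1 with chow, with 94, 96 and 98 for chow, 83 for HFD+STZ replicate 1, and 26 to 28 for the other HFD+STZ replicates. The labels do not say what the codes mean. Without HFD+STZ replicate 1, group and code range cannot be told apart within these libraries.

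**Figure D1:**
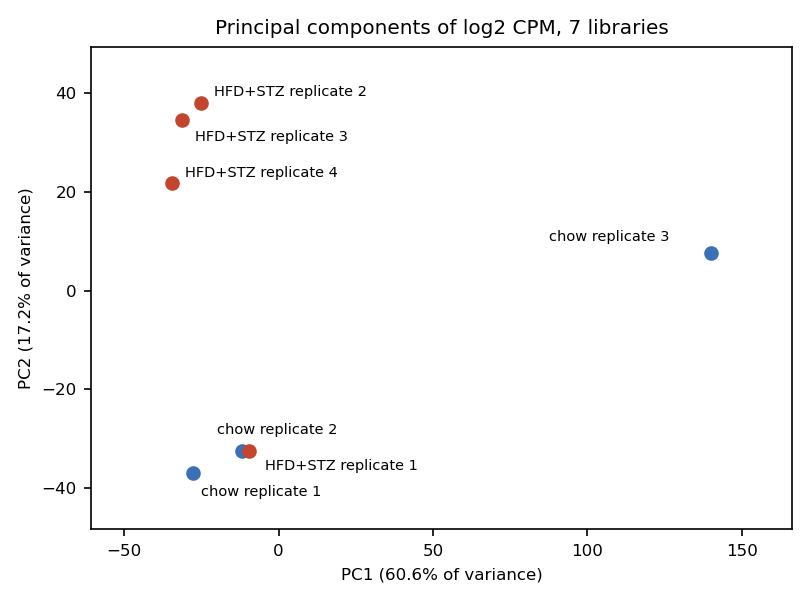
The first 2 principal components of log2 CPM in the 7 libraries, with the share of variance of each on its axis (blue points chow, red points HFD+STZ). Chow replicate 3 stands alone on the first component at 140.1, and HFD+STZ replicate 1 sits beside chow replicates 1 and 2 on the second.

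The heart origin of the libraries was read from 8 cardiomyocyte markers, whose summed level was 39500 to 44400 CPM (counts scaled to TMM library size) in chow and 33600 to 48900 CPM in HFD+STZ. The 8 fibroblast markers summed to 2860 to 3080 CPM in chow and 2100 to 3590 CPM in HFD+STZ. Macrophage markers, 12 in number, summed to 292 to 559 CPM in chow and 203 to 416 CPM in HFD+STZ. Of 10 adipocyte markers 4 (Adipoq, Lep, Retn and Ucp1) stayed under 1 CPM in all 7 libraries. So did 4 of 8 skeletal muscle markers (Myh1, Myh2, Myh4 and Actn3) and 9 of 12 lymphocyte markers. The other members exceeded 1 CPM in at least 1 library. Among them Cfd reached 5.70 CPM, Cidea 38.9 CPM and the skeletal muscle marker Mylpf 2.53 CPM. None of the markers listed was at 0 in all 7. In whole tissue, fewer cells of a type and less RNA per cell cannot be told apart.

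With all libraries, edgeR's quasi-likelihood test called 25 of 14862 genes at a Benjamini-Hochberg adjusted p under 0.05, or 0.168% of genes tested. HFD+STZ was higher in 20 (0.135%) and lower in 5 (0.0336%). At an unadjusted p under 0.05 there were 1800 genes. The 20 genes higher in HFD+STZ were Vwa3a, Sdk2, Spock2, Angptl4, Cyp2b10, Pth1r, Acer2, Gpr160, Fkbp5, Rassf4, Slc25a20, Mcf2l, Txnip, Tcf23, Ech1, Aqp7, Epor, Adgrg1, Hif3a and Ndrg4. The 5 lower genes were Lmod3, Oas1a, Fcrls, Dnajb1 and Hspa1a. In all 25 the ranges of the 3 chow and 4 HFD+STZ libraries did not overlap, which was so for 10.4% of all genes tested. Ndrg4 was nearest to the threshold on the inside, with an adjusted p of 0.0497. Several genes lay just outside, tied at an adjusted p of 0.05001. Among them were Mstn, Pdk4, Herpud1, Fam107a, Tent5b, Acot1, Lgals4, Hhipl1, Adamts9, Cyp4b1, Cldn15 and Acaa2. The count of 25 thus stops just short of a tie.

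Each of these 25 changes held, with the same direction, when chow replicate 3 was left out, when HFD+STZ replicate 1 was left out and when both were. Their adjusted p-values ran from 0.0014 to 0.0497 with all libraries, from 0.00238 to 0.038 without chow replicate 3, and from 0.000573 to 0.0196 without HFD+STZ replicate 1. The number of calls over all genes moved much more. It was 78 of 15231 (0.512%) without chow replicate 3, 215 of 14624 (1.47%) without HFD+STZ replicate 1 and 493 of 15017 (3.28%) without both. Leaving out any other library lowered it, to 3 and 1 without chow replicates 1 and 2, to 2, 5 and 3 without HFD+STZ replicates 2, 3 and 4, and to 9, 13, 6 and 5 without METTL3 replicates 1 to 4. With the METTL3 libraries left out of the fit altogether, edgeR called 0 genes, with 1369 at an unadjusted p under 0.05. DESeq2 on all libraries called 307, including all 25. With the code range as a covariate edgeR called 1 gene, Vwa3a, and all 25 kept their direction.

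**Figure D2:**
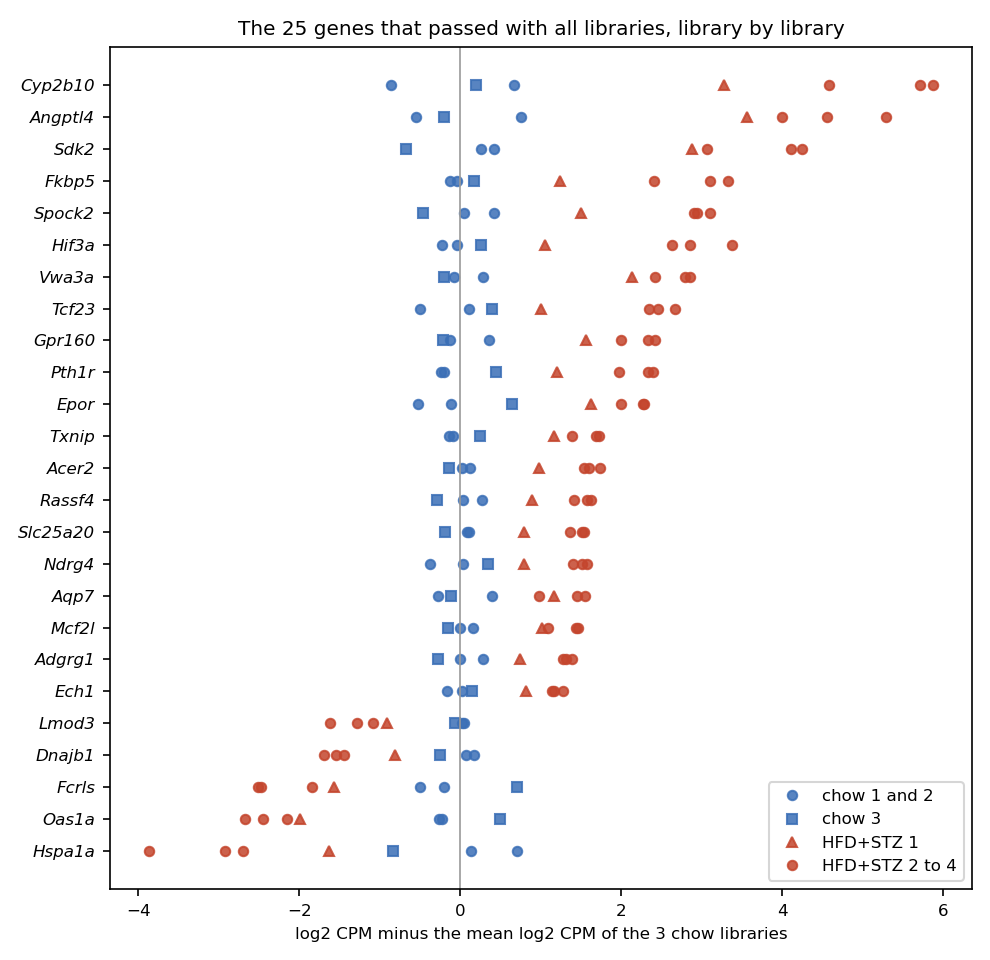
Each point is a library's log2 CPM minus the mean of the 3 chow libraries, for the 25 genes called with all libraries (blue chow, with chow replicate 3 as a square, and red HFD+STZ, with replicate 1 as a triangle). Chow and HFD+STZ points are separate in each row, and the triangle is the HFD+STZ library nearest to chow in 24 of them.

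Among the 25 called genes, HFD+STZ replicate 1 was the HFD+STZ library nearest to chow in 24. The measure was the smallest shift in the direction of the log2 fold change, which is not distance from chow where groups overlap. On it, the same library came first in 45.9% of all genes tested. Within the higher code range this library alone could be set beside the 3 chow libraries, which leaves no replicate for a test there. Its log2 CPM minus the chow mean was 3.51 for Angptl4, 1.23 for Fkbp5, 0.98 for Hif3a and -1.61 for Hspa1a. The mean of HFD+STZ replicates 2 to 4 minus the same chow mean was 4.56, 2.94, 2.83 and -3.08 in that order. Both differences use the same chow libraries. For Lmod3, whose chow values were close together, the same 2 values were -0.91 and -1.32.

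A further 31 genes passed both without chow replicate 3 and without HFD+STZ replicate 1, but not with all libraries, where their adjusted p ran from just above 0.05 to 0.166. Of these 31, 27 were higher and 4 lower in HFD+STZ, and 30 did not overlap between groups, against 10.4% of all genes tested. The 25 and the 31 were both picked by their p, which favours groups that do not overlap. Together with the 25 they make 56 genes, or 71.8% of the calls without chow replicate 3 and 26% of those without HFD+STZ replicate 1. Those 2 fits share 5 of the 7 libraries.

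**Figure D3:**
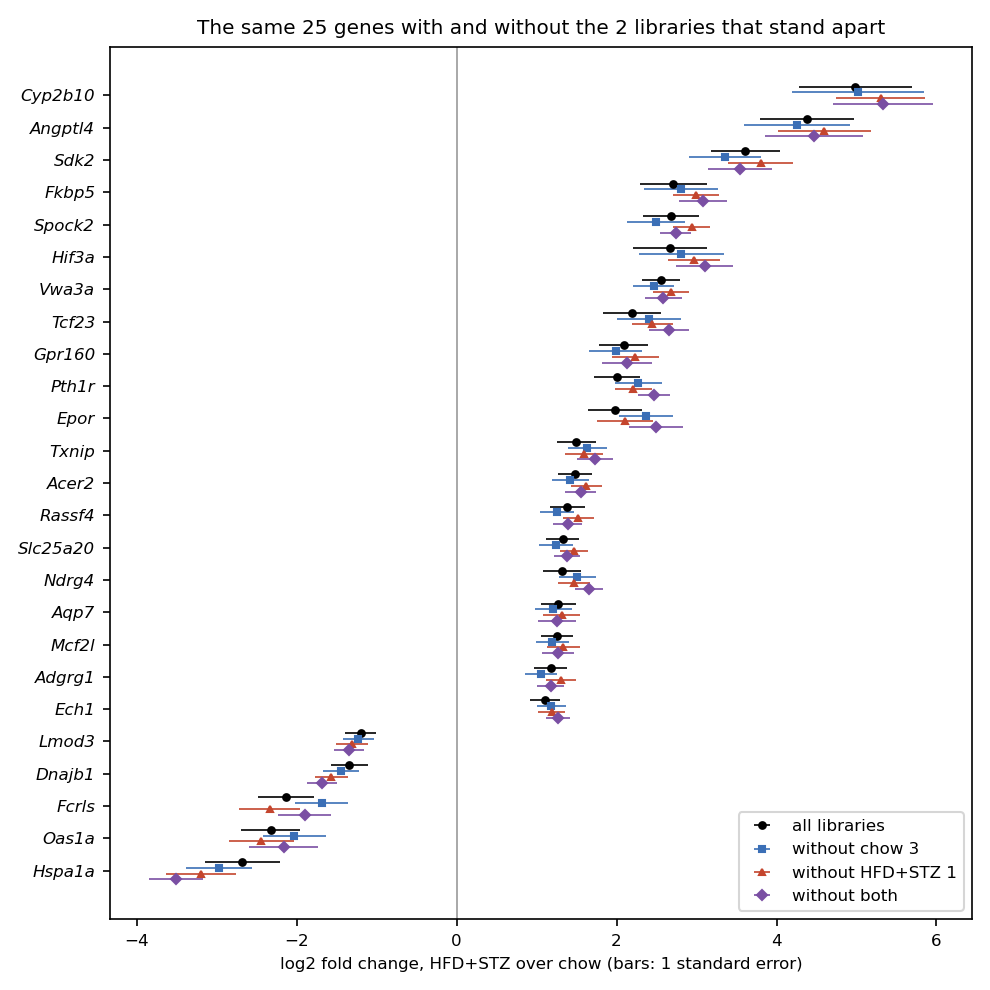
Log2 fold change of HFD+STZ over chow (bars, 1 standard error) for the 25 genes called with all libraries, refitted without chow replicate 3, without HFD+STZ replicate 1 and without both. All estimates keep the sign of the first fit.

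Of 11 tested genes of fatty acid uptake, 1 rose with all libraries, where 0.135% of all genes were called higher. Angptl4 encodes a secreted inhibitor of lipoprotein lipase and is a PPAR target (ENSMUSG00000002289, chromosome 17, 33773750 to 33781575, minus strand, mm10 coordinates as deposited). Its level was 2.33, 5.75 and 2.98 CPM on chow and 40.5, 80.5, 134 and 54.4 CPM in HFD+STZ, in the order of the replicate numbers, which is kept below. Every HFD+STZ library lay above every chow library, and the log2 fold change was 4.39 ± 0.59 (± SE, adjusted p 0.0186). Values with ± in the text below are log2 fold changes of HFD+STZ over chow with their SE. Cd36, the main fatty acid translocase of the heart, was at 1454, 1496 and 1085 CPM on chow and 2357, 3088, 3801 and 3014 CPM in HFD+STZ. The groups did not overlap, yet Cd36 missed the threshold with all libraries (log2 fold change 1.19 ± 0.23, adjusted p 0.0545) and passed without chow replicate 3 (0.04397) and without HFD+STZ replicate 1 (0.0144). Lpl, lipoprotein lipase itself, overlapped between groups at 3348, 3618 and 4144 CPM on chow and 3738, 4844, 4829 and 4116 CPM in HFD+STZ. Gpihbp1, which anchors the lipase to the capillary wall, passed only in the fits without chow replicate 3 (adjusted p 0.0162, against 0.193 with all). Fabp3, the heart's fatty acid binding protein, did not pass with all libraries (0.55 ± 0.27, adjusted p 0.432). It passed as higher only without chow replicate 3 and HFD+STZ replicate 1 together (log2 fold change 0.96, edgeR adjusted p 0.0292). Of the 11 genes, 4 passed without chow replicate 3 and 2 without HFD+STZ replicate 1, each time higher, against 0.400% and 1.09% of all genes. The median log2 fold change of this list was 0.55 with all libraries, 0.86 without chow replicate 3, 0.65 without HFD+STZ replicate 1 and 0.96 without both. Over all genes tested it was -0.02 with all libraries.

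Acyl-CoA enters mitochondria through the carnitine shuttle, where Slc25a20, the inner-membrane carrier of acylcarnitine (ENSMUSG00000032602, chromosome 9, 108662088 to 108684641, plus strand), rose. Its level was 124, 126 and 103 CPM on chow and 203, 340.3, 334 and 301 CPM in HFD+STZ, with HFD+STZ replicate 1 between the chow range and the other 3. The log2 fold change was 1.32 ± 0.21 (adjusted p 0.0309). Cpt2, the inner-membrane transferase, gave 0.31 ± 0.22 (adjusted p 0.557) with overlapping groups. It passed as higher only without chow replicate 3 and HFD+STZ replicate 1 together (log2 fold change 0.69, edgeR adjusted p 0.0220). Cpt1b, the muscle form of the outer enzyme, was counted at no more than 3.65 CPM in any of the 7 libraries and at 0 in chow replicate 3, low for a gene of heart muscle; the handling of shared reads is unknown, and nothing was drawn from its values. Thioesterases free fatty acids from CoA again. The cytosolic Acot1 was at 8.34, 10.4 and 3.04 CPM on chow and 23.4, 76.6, 92.6 and 56.7 CPM in HFD+STZ, without overlap, and passed without chow replicate 3 (adjusted p 0.0437) and without HFD+STZ replicate 1 (0.00958), but not with all (0.05001). The mitochondrial Acot2, its close copy, was at 61.2, 60.2 and 14.97 CPM on chow and 101, 262, 283 and 249 CPM in HFD+STZ, again without overlap, and passed only in fits without HFD+STZ replicate 1 (0.0454). Acot1 and Acot2 are similar in sequence, and their reads may be shared.

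The 18 beta-oxidation genes tested had a median log2 fold change of 0.86, and 17 lay above 0, against 48.4% of all genes. None passed with all libraries, although 14 were higher and 1 lower at an unadjusted p under 0.05, where 5.58% and 6.53% of all genes were. Without chow replicate 3, 3 passed, all higher (0.400% of all genes were called higher in that fit). These were Acaa2, the thiolase of the last step, Eci1, an isomerase for unsaturated fatty acids, and Decr1, a reductase for the same. Without HFD+STZ replicate 1, 7 passed, all higher (1.09% of all genes), namely these 3 with Acadm, Eci2, Etfdh and Hadh. Acaa2 was at 605, 595 and 750.1 CPM on chow and 1033, 1461, 1427 and 1281 CPM in HFD+STZ, so that the lowest HFD+STZ value exceeded the highest chow value. Acadm, medium-chain acyl-CoA dehydrogenase, was at 826, 752 and 741 CPM on chow and 960.2, 1729.6, 1571 and 1512 CPM in HFD+STZ, and its log2 fold change was 0.901 ± 0.22 (adjusted p 0.136 with all libraries, 0.0177 without HFD+STZ replicate 1). Hadha, the alpha subunit of the trifunctional protein, overlapped at 1101, 979 and 296 CPM on chow and 1049.6, 2126, 1992 and 1969.7 CPM in HFD+STZ, where replicate 1 lay within the chow range. The median of the list was 0.76 without chow replicate 3 and 0.98 without HFD+STZ replicate 1.

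**Figure D4:**
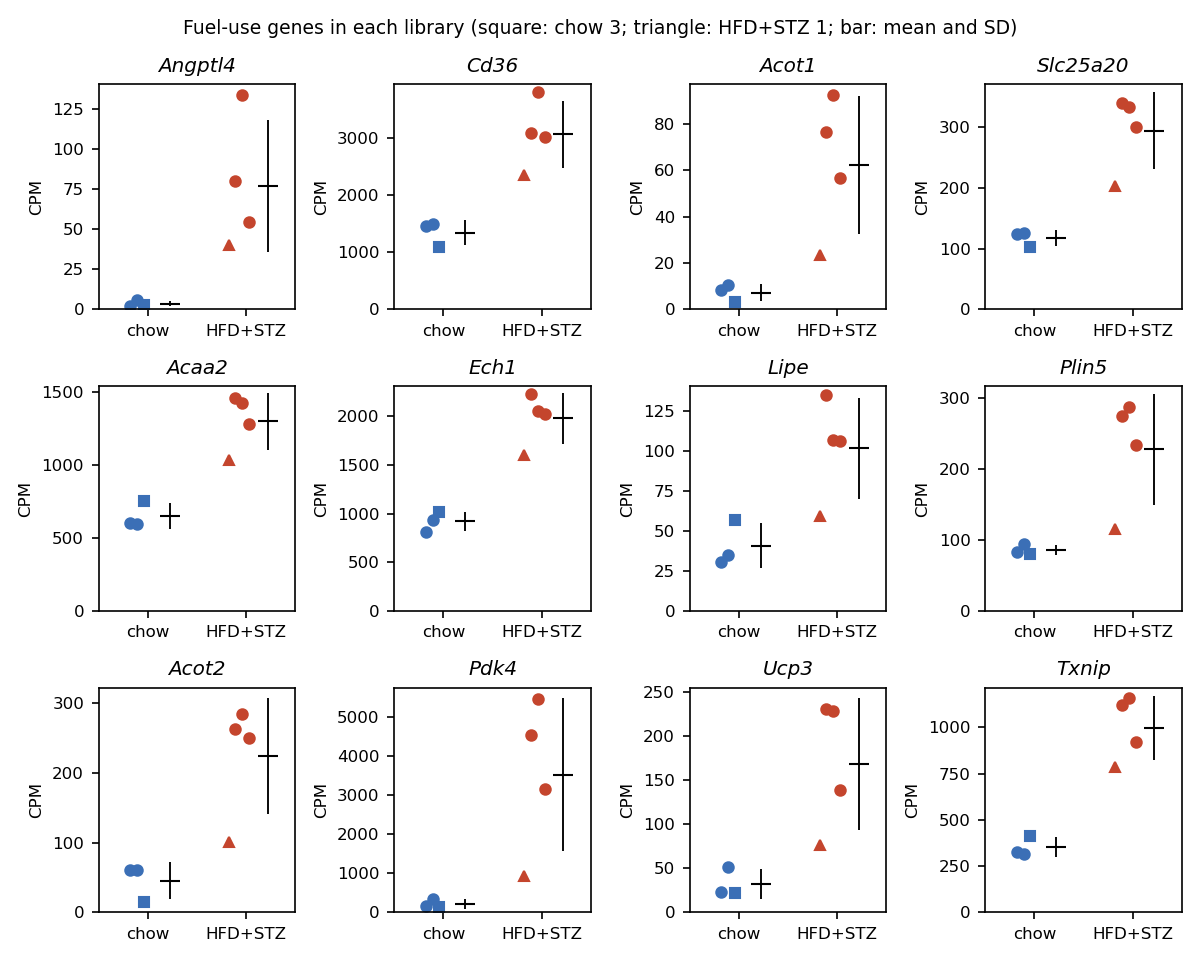
CPM of 12 fuel-use genes in each library (blue chow, red HFD+STZ, square chow replicate 3, triangle HFD+STZ replicate 1, bar mean and SD of the group). HFD+STZ replicate 1 is the lowest of its group in each panel and lies above the highest chow value in every one of the 12, by a small margin in Lipe.

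Peroxisomes shorten the longest fatty acids. Ech1, an isomerase of unsaturated fatty acid oxidation present in peroxisomes and mitochondria (ENSMUSG00000053898, chromosome 7, 28825217 to 28832247, plus strand), was at 815, 935 and 1014 CPM on chow and 1609, 2226, 2056 and 2027 CPM in HFD+STZ and rose by a log2 fold change of 1.104 ± 0.18 (adjusted p 0.0372). Ehhadh, the peroxisomal bifunctional enzyme, and Cat, the catalase that breaks down the hydrogen peroxide made there, did not overlap between groups. They passed only where HFD+STZ replicate 1 was left out, with adjusted p-values of 0.0122 and 0.0177, against 0.1104 and 0.0872 with all libraries. Of 16 peroxisomal genes tested, 1 rose with all libraries, 1 passed without chow replicate 3 and 4 without HFD+STZ replicate 1, all higher. Over all genes the shares called higher in these fits were 0.135%, 0.400% and 1.09%.

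Stored lipid is handled at the lipid droplet. Aqp7, the channel by which glycerol crosses the membrane, was at 18.03, 28.7 and 20.3 CPM on chow and 48.9, 43.2, 59.7 and 64.3 CPM in HFD+STZ and rose (1.27 ± 0.22, adjusted p 0.0417), and here HFD+STZ replicate 2 rather than replicate 1 was nearest to chow. Lipe, hormone-sensitive lipase, was at 30.7, 35.1 and 56.8 CPM on chow and 59.03, 135, 106 and 106 CPM in HFD+STZ; the gap between chow replicate 3 and HFD+STZ replicate 1 was small, and the gene passed in both refits but not with all libraries (adjusted p 0.0823). Plin5, the droplet coat protein of oxidative tissue, was at 82.9, 93.7 and 80.4 CPM on chow and 116, 274, 287 and 233 CPM in HFD+STZ. It missed the threshold with all libraries (1.41 ± 0.26, adjusted p 0.0511) and without chow replicate 3 (0.0517), and passed without HFD+STZ replicate 1 (0.00162). The triglyceride and monoglyceride lipases Pnpla2 and Mgll passed in that fit as well, with adjusted p-values of 0.0276 and 0.0444. The list held 18 tested genes, of which 0 passed with all libraries, 1 without chow replicate 3 and 6 without HFD+STZ replicate 1, all higher, against 0.400% and 1.09% of all genes in the refits. With all libraries, edgeR found 9 of them higher and 1 lower at an unadjusted p under 0.05, against 5.58% and 6.53% of all genes. Fat cells also express Aqp7, Lipe and Angptl4. The 10 adipocyte markers summed to 312 to 1320 CPM in chow and 795 to 1040 CPM in HFD+STZ. Of these, Cfd (adipsin) was at 5.70, 4.73 and 2.93 CPM on chow and 2.18, 0.182, 0 and 0 CPM in HFD+STZ, and Car3 (carbonic anhydrase 3) at 11.5, 3.82 and 1.46 CPM on chow and 7.54, 0.304, 0.279 and 0.365 CPM in HFD+STZ. Both were low in HFD+STZ replicates 2 to 4 and passed as lower without HFD+STZ replicate 1, where the lipid genes above were higher. Of the 5 adipocyte markers tested, 2 lay above 0. Cidea, a lipid droplet protein, was at 14.6, 20.2 and 22.9 CPM on chow and 16.5, 35.3, 38.9 and 29.9 CPM in HFD+STZ (0.65 ± 0.27, adjusted p 0.375). Without chow replicate 3, 1 of 5 adipocyte markers tested was called higher, where 0.400% of all genes were. Without chow replicate 3 and HFD+STZ replicate 1 together, 2 of the 4 markers then tested were called higher, Cidea among them, and 2 lower. In that fit 3.28% of all genes were called. The part of fat cells in these values was not tested.

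Acer2, a Golgi ceramidase that splits ceramide into sphingosine and fatty acid, was at 32.6, 30.4 and 27.3 CPM on chow and 58.9, 99.7, 90.6 and 86.9 CPM in HFD+STZ and rose, with a log2 fold change of 1.48 ± 0.22 (adjusted p 0.0245).

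Pdk4 (ENSMUSG00000019577, chromosome 6, 5483351 to 5496309, minus strand) was at 168, 353 and 131 CPM on chow and 944, 4542, 5457 and 3173 CPM in HFD+STZ. The 4 HFD+STZ values were above the 3 chow values, with HFD+STZ replicate 1 far below the other 3 of its group. The change did not hold as a call without chow replicate 3 (adjusted p 0.0517), held without HFD+STZ replicate 1 (0.00814) and held without both (0.00294). The list of pyruvate dehydrogenase subunits, kinases and phosphatases had 13 genes tested, with Pdk4 as the single call and only in the fits without HFD+STZ replicate 1. Over all genes 1.09% were called higher without that library, and 3.28% were called in either direction without both. Txnip, a glucose-responsive protein that binds thioredoxin and restrains glucose uptake (ENSMUSG00000038393, chromosome 3, 96557957 to 96561883, plus strand), rose from 327, 317 and 413 CPM on chow to 786, 1122, 1157 and 919 CPM in HFD+STZ (1.499 ± 0.24, adjusted p 0.0309). Its log2 fold change was 1.63 without chow replicate 3 and 1.598 without HFD+STZ replicate 1. Slc2a4, the insulin-responsive glucose transporter GLUT4, overlapped at 348, 326 and 177 CPM on chow and 218, 338, 235 and 325 CPM in HFD+STZ. Fbp2, the muscle fructose bisphosphatase, did not overlap (1.37 ± 0.29) and passed in both refits. Of 26 genes of glucose transport and glycolysis, none passed with all libraries. There edgeR found 2 higher and 3 lower at an unadjusted p under 0.05, where 5.58% and 6.53% of all genes were. Gapdh was listed at 63.9, 134 and 8.05 CPM on chow and 14.4, 6.202, 6.27 and 15.6 CPM in HFD+STZ. That is low for a gene that heart muscle expresses strongly, and many copies of it lie elsewhere in the genome. It passed as lower without chow replicate 3 and its counting is uncertain.

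Uncoupling proteins let protons back across the inner mitochondrial membrane, and those of muscle rise with fatty acid supply. Ucp3, the muscle form, was at 22.7, 51.7 and 21.7 CPM on chow and 76.2, 230.3, 228 and 138 CPM in HFD+STZ. Ucp2, which is found in many tissues, was at 81.3, 102 and 40.4 CPM on chow and 150.4, 209, 305 and 162 CPM in HFD+STZ. Neither overlapped between groups. Both passed without HFD+STZ replicate 1 (adjusted p 0.0177 and 0.0429) and missed with all libraries (0.0641 and 0.106) and without chow replicate 3 (0.0991 and 0.0904). Without HFD+STZ replicate 1, 3 of 15 glycogen genes passed as higher as well, among them Phka1, a regulatory subunit of phosphorylase kinase (adjusted p 0.00744). Of 17 genes of the tricarboxylic acid cycle 1 passed in that fit, Idh2, the mitochondrial isocitrate dehydrogenase (0.0227). Over all genes 1.09% were called higher in that fit.

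Glucocorticoid-responsive genes included 2 that rose with all libraries out of 20 tested. Fkbp5, a co-chaperone that restrains the glucocorticoid receptor and is induced by it (ENSMUSG00000024222, chromosome 17, 28399094 to 28517527, minus strand), was at 20.7, 21.8 and 25.4 CPM on chow and 53.1, 193, 227 and 119.9 CPM in HFD+STZ, and its log2 fold change was 2.71 ± 0.42 (adjusted p 0.0309). Hif3a, an oxygen-sensing factor that glucocorticoids also induce, was at 1.09, 1.24 and 1.52 CPM on chow and 2.62, 7.84, 13.2 and 9.13 CPM in HFD+STZ (2.67 ± 0.47, adjusted p 0.0469). In both genes HFD+STZ replicate 1 lay above chow and well below the next HFD+STZ value. Cdkn1a, the cell cycle inhibitor p21, was at 8.29, 13.7 and 21.2 CPM on chow and 20.3, 114, 87.1 and 61.5 CPM in HFD+STZ; here HFD+STZ replicate 1 fell inside the chow range, and the gene passed in each refit but not with all libraries (adjusted p 0.0838). Zbtb16, a strongly steroid-induced factor, did not overlap between groups, with 34.1, 23.6 and 3.15 CPM on chow and 37.5, 101, 119.6 and 84.8 CPM in HFD+STZ, but it varied widely within chow, where replicate 3 was lowest, and missed the threshold (0.281). The list median was 0.72 with all libraries, 1.28 without chow replicate 3 and 1.01 without HFD+STZ replicate 1. In these refits 4 and 5 members passed, all higher. Over all genes 0.135% were called higher with all libraries, and 0.400% and 1.09% in these refits.

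Of 21 heat shock genes tested, 2 fell with all libraries, Hspa1a and Dnajb1, where 0.0336% of all genes were called lower. Hsp70, encoded by the neighbouring intronless genes Hspa1a and Hspa1b, refolds damaged proteins, and Dnajb1 is its Hsp40 partner; heat shock factor 1 drives all 3. The 250 bases before the starts of Hspa1a (chr17:34972157-34972406, minus strand) and Hspa1b (chr17:34959239-34959488, minus strand) are shown because both genes were lower in HFD+STZ. They are RefSeq sequences on GRCm38.p6, 5′ to 3′, and the capitals mark GAANNTTC, an inverted pair of heat shock factor units.
Hspa1a: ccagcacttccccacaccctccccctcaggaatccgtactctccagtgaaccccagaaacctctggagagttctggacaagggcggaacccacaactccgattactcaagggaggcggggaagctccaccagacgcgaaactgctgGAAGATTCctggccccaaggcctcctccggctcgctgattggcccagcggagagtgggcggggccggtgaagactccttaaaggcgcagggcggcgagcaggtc
Hspa1b: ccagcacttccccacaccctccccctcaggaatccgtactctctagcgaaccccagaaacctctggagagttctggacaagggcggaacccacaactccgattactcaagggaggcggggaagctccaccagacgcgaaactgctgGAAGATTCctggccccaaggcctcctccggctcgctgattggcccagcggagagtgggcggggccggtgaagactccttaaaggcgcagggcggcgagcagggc
The motif lies 104 to 97 bases before both starts, and 247 of the 250 bases (98.8%) are the same in the pair. Searched on both strands, GAANNTTC was present in 6.69% of 32851 promoters of that length, and TTCNNGAA, absent from this pair, in 7.17%. Both genes encode Hsp70, and their reads may be shared, so the split between them is uncertain. Their transcripts were not compared.

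Hspa1a was at 31.4, 21.2 and 10.8 CPM on chow and 6.25, 2.55, 1.32 and 2.98 CPM in HFD+STZ, and fell (log2 fold change -2.68 ± 0.47, adjusted p 0.0469). The lowest chow value was that of chow replicate 3 and the highest HFD+STZ value that of HFD+STZ replicate 1, and without both libraries the log2 fold change was -3.51 (adjusted p 0.000139). Hspa1b was at 45.1, 25.5 and 13.7 CPM on chow and 10.7, 2.07, 1.74 and 3.04 CPM in HFD+STZ, with the same order of libraries at the boundary. It missed the threshold with all libraries (adjusted p 0.0872), and passed without chow replicate 3 (0.0194) and without HFD+STZ replicate 1 (0.00356). Dnajb1 (ENSMUSG00000005483, chromosome 8, 83608193 to 83612653, plus strand) was at 46.4, 43.3 and 34.6 CPM on chow and 23.5, 15.1, 12.7 and 14.1 CPM in HFD+STZ and fell (-1.34 ± 0.23, adjusted p 0.0469). Hsph1, an Hsp110 exchange factor of the same response, did not overlap between groups but did not pass (-0.93 ± 0.26, adjusted p 0.204). In the refits, 3 of the 21 passed as lower without chow replicate 3, the 2 above and Hspa1b (0.112% of all genes were called lower in that fit) and 4 without HFD+STZ replicate 1 (0.376%), these 3 and Dnaja1, another Hsp40, which is named after its values were seen. The list median was -0.32 with all libraries and -0.12 and -0.24 in these refits.

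Of 32 interferon-induced genes tested, 1 fell with all libraries, where 0.0336% of all genes were called lower. This was Oas1a, a sensor of double-stranded RNA that interferon induces (ENSMUSG00000052776, chromosome 5, 120896256 to 120907521, minus strand). It was at 3.99, 3.87 and 6.53 CPM on chow and 1.17, 0.851, 1.05 and 0.7305 CPM in HFD+STZ, and its log2 fold change was -2.33 ± 0.37 (adjusted p 0.0309). Chow replicate 3 was the highest library, and the log2 fold change without it was -2.03 (adjusted p 0.0380). The bases before its start (chr5:120907526-120907775, minus strand, same source and build) are shown for 2 overlapping copies of an interferon element (GAAA, any 2 bases, GAAA), in capitals, at 20 to 11 and 14 to 5 bases before the start.
Oas1a: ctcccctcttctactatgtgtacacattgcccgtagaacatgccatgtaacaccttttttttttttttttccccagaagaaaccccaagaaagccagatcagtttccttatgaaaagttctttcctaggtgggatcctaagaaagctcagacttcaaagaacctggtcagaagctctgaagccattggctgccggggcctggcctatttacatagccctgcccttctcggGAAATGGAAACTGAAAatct
Searched on both strands, that motif was in 2.98% of all promoters and in 1 of 72 promoters available for 49 of the 56 genes. Other Oas1 genes lie close by in sequence, and reads may be shared among them. Isg15, a ubiquitin-like interferon product, did not overlap between groups at 4.46, 4.41 and 11.1 CPM on chow and 1.396, 1.34, 1.32 and 1.096 CPM in HFD+STZ, and passed only without HFD+STZ replicate 1 (adjusted p 0.04804). Over the 32 genes, 1 lay above 0 and the median was -0.57. The calls, all lower, were 1 without chow replicate 3 and 2 without HFD+STZ replicate 1, and 13 genes were lower at an unadjusted p under 0.05 with all libraries. Over all genes 0.112% and 0.376% were called lower in these refits, and 6.53% were lower at that unadjusted p. Genes of MHC class II presentation, which macrophages and B cells use to show antigen, had a median of -1.09 over 9 genes, with none called with all libraries or in either refit (edgeR, 6 lower at an unadjusted p under 0.05 with all libraries). H2-Aa, a class II chain, was at 29.9, 39.7 and 21.95 CPM on chow and 11.8, 22.1, 13.2 and 13.4 CPM in HFD+STZ.

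Fcrls, an Fc receptor-like scavenger gene of resident macrophages, was at 9.33, 11.5 and 21.6 CPM on chow and 4.47, 2.31, 3.69 and 2.37 CPM in HFD+STZ and fell (-2.13 ± 0.35, adjusted p 0.0372). The groups did not overlap, and chow replicate 3 was highest. The list of 12 macrophage markers had a median of -0.65, with Fcrls as the single call with all libraries (0.0336% of all genes were called lower). At an unadjusted p under 0.05 in edgeR, 4 of the 12 were lower and 1 higher, where 6.53% and 5.58% of all genes were. The higher one was Lyve1, a hyaluronan receptor of resident macrophages and lymphatic vessels, at 18.7, 20.3 and 21.4 CPM on chow and 32.9, 29.98, 51.6 and 24.8 CPM in HFD+STZ, without overlap (0.79 ± 0.25, adjusted p 0.259). C1qa, a complement subunit made by macrophages, was at 42.4, 68.2 and 164 CPM on chow and 35.1, 35.8, 48.2 and 30.7 CPM in HFD+STZ, so that chow replicate 3 stood above the rest and the lower chow library overlapped HFD+STZ. Neutrophil markers had a median of 2.10 over 7 genes with none called (edgeR, 4 higher at an unadjusted p under 0.05); S100a9, the most abundant alarmin of neutrophils, was at 0.933, 2.097 and 3.04 CPM on chow and 2.904, 16.1, 14.6 and 1.096 CPM in HFD+STZ, high in HFD+STZ replicates 2 and 3 only. The part of cell numbers in these values was not tested.

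Among genes of the contractile apparatus, Lmod3 fell. Leiomodin 3 nucleates actin at the pointed end of thin filaments (ENSMUSG00000044086, chromosome 6, 97238534 to 97252759, minus strand). Its level was 90.8, 92.4 and 85.1 CPM on chow and 47.5, 29.2, 36.9 and 42.2 CPM in HFD+STZ, with a narrow chow range that included chow replicate 3, and the log2 fold change was -1.20 ± 0.19 (adjusted p 0.0309). It was the 1 call among 24 sarcomere genes with all libraries, and passed in each refit. Over all genes 0.0336% were called lower with all libraries, and 0.112% and 0.376% without chow replicate 3 and without HFD+STZ replicate 1. In the last of these fits 1.09% were called higher. Myom2, a protein of the M band in the same list, passed as higher without HFD+STZ replicate 1 (adjusted p 0.0177, against 0.192 with all libraries). Its level was 579.7, 449 and 425 CPM on chow and 541, 1149.8, 1499 and 1355 CPM in HFD+STZ, with HFD+STZ replicate 1 inside the chow range. Myh6, the main myosin heavy chain of the adult mouse heart, and Atp2a2, the calcium pump of the sarcoplasmic reticulum, overlapped between groups, with adjusted p-values of 0.718 and 0.721, and their log2 fold changes turned from above 0 to just below it without chow replicate 3. The natriuretic peptides Nppa and Nppb, which rise in a strained heart, were highest in chow replicate 3. Nppb was at 106, 125 and 596 CPM on chow and 81.3, 12.8, 62.9 and 128 CPM in HFD+STZ. Nppa gave a log2 fold change of -0.59 ± 0.496 with all libraries and 0.42 without that library, and it passed in neither fit. None of the 13 fetal and natriuretic genes and none of the 17 calcium-cycling genes was called in any of the 4 fits. With all libraries edgeR found 1 in each list at an unadjusted p under 0.05, where 5.58% of all genes were higher and 6.53% lower. Gja1, the connexin of ventricular gap junctions, was lower without overlap at 368, 314 and 345 CPM on chow and 233, 165, 191 and 189.9 CPM in HFD+STZ, and passed without HFD+STZ replicate 1 (adjusted p 0.0405) but not with all libraries (0.124).

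Of 28 matrix genes tested, 1 rose with all libraries, 4 passed as higher without chow replicate 3 and 2 without HFD+STZ replicate 1. The shares of all genes called higher in these fits were 0.135%, 0.400% and 1.09%. The list median was -0.20 with all libraries. Spock2, a testican proteoglycan, rose from 11.6, 8.92 and 6.305 CPM on chow to 24.5, 64.9, 74.2 and 66.6 CPM in HFD+STZ (2.68 ± 0.35, adjusted p 0.0186). Sdk2, a cell adhesion molecule of the sidekick family known from retinal synapses, was at 1.55, 1.398 and 0.732 CPM on chow and 8.60, 9.73, 22.2 and 20.03 CPM in HFD+STZ and rose (3.61 ± 0.43, adjusted p 0.0111). Adamts9, a matrix protease, passed in both refits as higher (1.13 ± 0.21 with all libraries, adjusted p 0.05001). Mstn, myostatin, which limits muscle growth, was counted 5 times over the 3 chow libraries and 148 times over the 4 HFD+STZ libraries. The ratio per depth was 25.3 (95% exact interval 10.6 to 79.1, counting error only), and Mstn passed in both refits.

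Collagens depended on HFD+STZ replicate 1. Over 17 collagen genes tested the median log2 fold change was -0.47 with all libraries, where none passed (edgeR, 1 lower at an unadjusted p under 0.05). It was -0.80 without that replicate, where Col4a4, Col3a1 and Col1a2 passed as lower. Over all genes 0.376% were called lower in that fit, and 6.53% were lower at that unadjusted p with all libraries. Col3a1, a fibrillar collagen of scar and vessel wall, was at 216, 288 and 521 CPM on chow and 363, 75.5, 114 and 139.8 CPM in HFD+STZ. Col1a1 was at 173, 205 and 100.03 CPM on chow and 284, 72.7, 105 and 105 CPM in HFD+STZ. In both genes HFD+STZ replicate 1 lay far above the other 3 of its group. Fibroblast markers gave 1 call, the same Col1a2, in that fit. Timp4, a metalloproteinase inhibitor of the heart, passed only in the fits without chow replicate 3 (adjusted p 0.0319, log2 fold change 1.72).

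Epor, the erythropoietin receptor, was at 1.503, 1.99 and 3.38 CPM on chow and 6.65, 8.63, 10.5 and 10.5 CPM in HFD+STZ and rose (1.98 ± 0.34, adjusted p 0.0469). The 8 erythroid markers summed to 337 to 2250 CPM in chow and 526 to 1130 CPM in HFD+STZ. The adhesion receptor Adgrg1 and the orphan receptor Gpr160 rose by 1.18 ± 0.21 and 2.09 ± 0.31 (log2 fold change, adjusted p 0.0469 and 0.0245). Mcf2l, a guanine nucleotide exchange factor, rose by 1.26 ± 0.20, and Ndrg4, a cytoplasmic protein of the NDRG family expressed in heart and brain, by 1.32 ± 0.23. Pth1r, the parathyroid hormone receptor, rose in count (2.01 ± 0.29, adjusted p 0.0245), but overlaps Myl3 on the opposite strand, which had 533748 counts over the 7 libraries against 2561 for Pth1r. The strand setting is not stated and overlap of exons was not examined. How far reads of such a pair are shared was not tested. The log2 fold change of Myl3, the ventricular light chain, was -0.13 ± 0.28 and that of Pth1r 2.01 ± 0.29. Rassf4, a Ras-association protein, rose by 1.38 ± 0.21 and overlaps Depp1, which had 10050 counts against 3462 and a log2 fold change of 1.17 ± 0.38 (adjusted p 0.2803).

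The gene with the smallest p was Vwa3a, which encodes a protein with a von Willebrand factor A domain (ENSMUSG00000030889, chromosome 7, 120739318 to 120805742, plus strand). Its level was 6.37, 4.95 and 4.56 CPM on chow and 23.01, 28.03, 37.7 and 36.2 CPM in HFD+STZ, with both groups narrow, and the log2 fold change was 2.56 ± 0.24 (adjusted p 0.001402). Tcf23, a basic helix-loop-helix factor, was at 2.18, 3.33 and 4.05 CPM on chow and 6.199, 19.6, 15.7 and 16.9 CPM in HFD+STZ and rose (2.19 ± 0.36, adjusted p 0.0372). Cyp2b10, a cytochrome P450 best known as a liver target of the receptor CAR, had 12 counts over the chow libraries and 457 over HFD+STZ, a ratio per depth of 32.5 (95% exact interval 18.5 to 63.5, counting error only).

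The other genes that passed in both refits but not with all libraries fell into several roles. Herpud1, a component of protein degradation at the endoplasmic reticulum, was at 164, 156 and 127 CPM on chow and 237, 492, 538 and 404 CPM in HFD+STZ. Bnip3, a mitophagy receptor, gave a log2 fold change of 0.96 ± 0.195, and Car4, a membrane carbonic anhydrase, 1.44 ± 0.28. Agt, angiotensinogen, gave 2.38 ± 0.46, with 1.24, 2.204 and 3.55 CPM on chow and 4.69, 14.7, 19.7 and 9.801 CPM in HFD+STZ, without overlap. Slc43a3, a purine transporter, gave 1.05 ± 0.203, while Ppat, the enzyme that commits purine synthesis, gave -0.95 ± 0.18. Ppat lies opposite Paics, which had 13544 counts against 2118 and a log2 fold change of 0.24 ± 0.21. Lgals4 (galectin-4), Cldn15 (a claudin), Pkp4 (a plakophilin), Cyp4b1, Btnl9, Hhipl1, Fam107a, Fam117b, Tent5b, Olfm2 and Olfr1033 were higher, with log2 fold changes from 0.98 to 3.10. Besides Hspa1b and Ppat, the lower genes were Robo2, a receptor for Slit proteins, at -2.12 ± 0.402, and Itgb6, an integrin subunit, at -1.13 ± 0.22.

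Several lists gave no call with all libraries or in either refit. None of the 18 genes that write, erase or read m6A in RNA passed, and edgeR found 0 of them at an unadjusted p under 0.05. The same held for 21 cell cycle genes. Of 17 genes of branched-chain amino acid catabolism 3 were higher at an unadjusted p under 0.05, where 5.58% of all genes were, with none past the adjusted threshold. Of 15 MHC class I genes 6 were lower at that p, where 6.53% of all genes were. The MHC class I median of -0.45 went to -0.18 without chow replicate 3 and to 0.06 without both libraries. Psmb10, a subunit of the immunoproteasome in that list, was at 36.1, 46.8 and 140.4 CPM on chow and 27.5, 31.4, 29.8 and 35.4 CPM in HFD+STZ, with chow replicate 3 far above the rest.

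**Figure D5:**
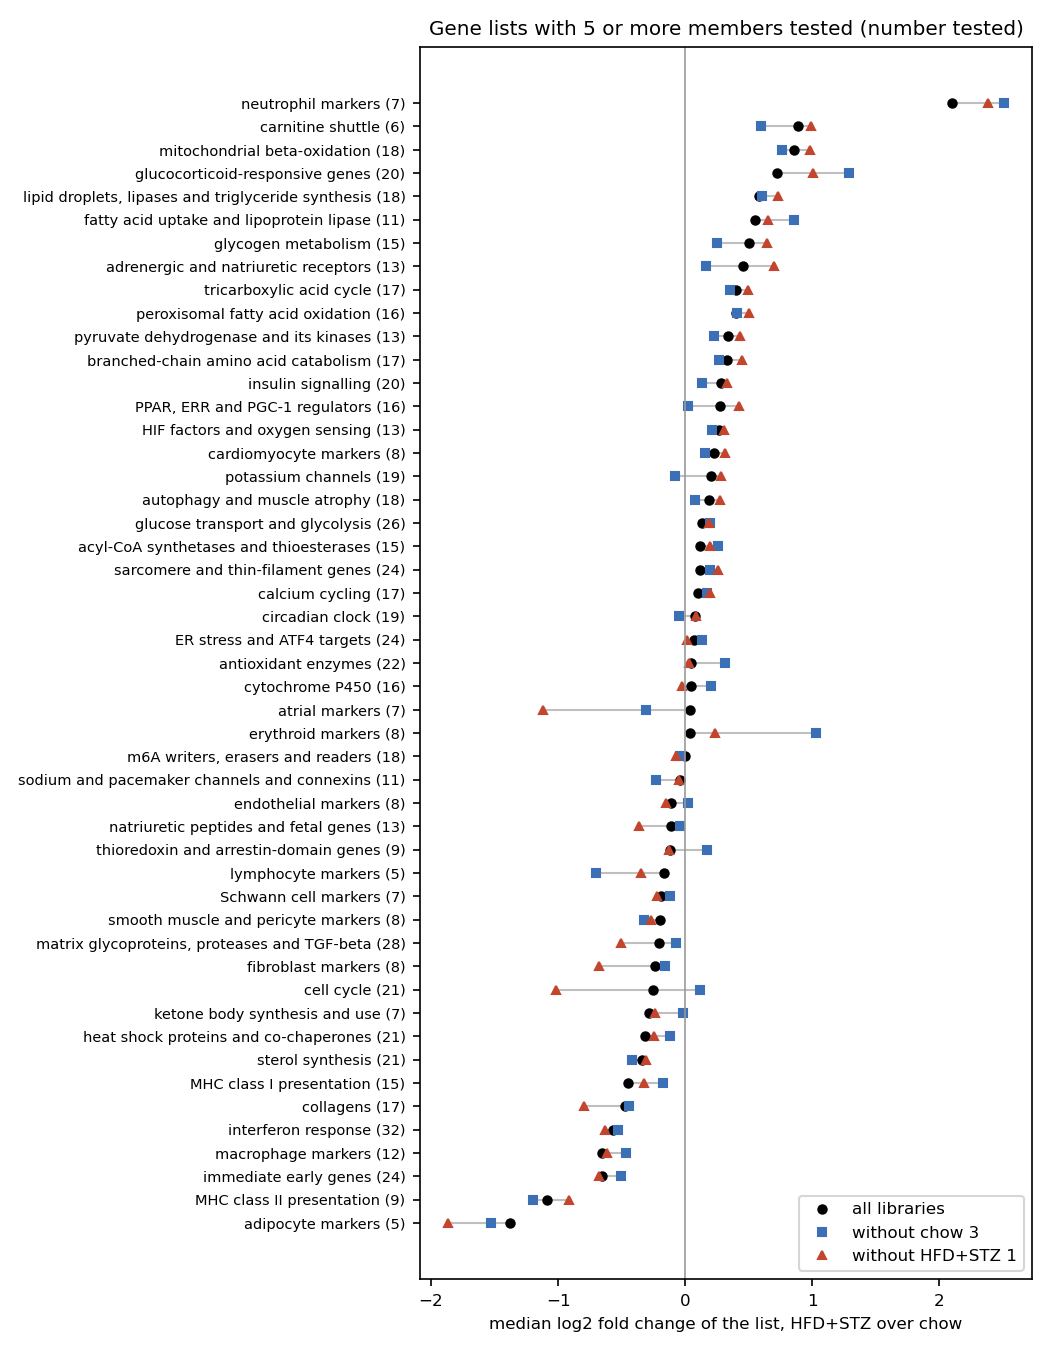
Median log2 fold change of HFD+STZ over chow for each gene list with at least 5 members tested (number tested in brackets), with all libraries (black circles), without chow replicate 3 (blue squares) and without HFD+STZ replicate 1 (red triangles). The fatty acid lists stay above 0 and the interferon and MHC class II lists below 0 in all 3 fits, and the cell cycle list moves from 0.12 to -1.02 between the refits.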

How the data were processed

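RNA of whole mouse hearts was depleted of ribosomal RNA with a RiboZero kit and sequenced, per the labels. The authors deposited whole-number counts per gene for 11 libraries, in a table of 54532 genes, of which 27293 were at 0 throughout. The submitters' processing notes name FastQC and Salmon, with no version, and the mm10 build. Strandedness and annotation release were not given in the sources used here, nor was the treatment of shared reads. No column of another sample was present (0 columns). Total counts of the 7 libraries compared ran from 14323454 to 16952639. Intervals and floors cover counting error only.

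The test was edgeR 4.0.16 (R 4.3.3), with TMM scaling, filterByExpr (minimum count 10, minimum total 15), group means of all 11 libraries and Benjamini-Hochberg adjustment over 14862 genes. The METTL3 libraries thus shared the filter, the scaling and the estimate of the spread, but not the contrast. CPM was computed on TMM library sizes; a prior count of 2 was added for log2 CPM. Standard errors came from the coefficient and its F statistic. No list was tested as a set. No pair within chow or within HFD+STZ agreed within sampling noise, with a chi-square per degree of freedom of 18.12 to 338.1, and none was merged. Pairs across groups and the METTL3 libraries were not compared. The labels state no pairing of samples by replicate number. Deviations of same-numbered chow and HFD+STZ libraries correlated at -0.126, -0.0543 and -0.0474 across genes, and differently numbered ones at -0.189 to 0.22. Deviations within a group depend on each other, and chow replicate 3 stood far apart, so this check cannot exclude a pairing.

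Named genes are those called with all libraries, the 15 with the smallest p among those called both without chow replicate 3 and without HFD+STZ replicate 1, the 3 members of each list with the smallest p, and 18 chosen heart and fuel genes. The remaining genes of those called in both refits, list members named as calls of 1 refit, and the partners of overlapping genes were added after their values were seen. The groups, the lists and the rule were chosen with earlier results of these data known. Predicted genes were not named, and 1 gene that met the rule is not reported here. On simulated counts of 14862 genes with 200 changed, the procedure recovered 16.8% of changes of log2 size 1 and 74.2% of size 2 for this comparison, and 2.59% of calls were false. These counts were drawn independently from a shared mean profile, with no library standing apart and no difference by code range. The simulated rates therefore do not give the share of false calls in the real comparison.

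Alternatives were limma 3.58.1 voom with quality weights, DESeq2 1.42.0 or its size factors, no filter or a minimum count of 50, upper-quartile scaling, robust moderation, only the groups compared, mitochondrial genes left out, the replicate number as a block, the code range as a covariate, and leaving out each library or the 2 that stood apart together. Promoters of 49 of the 56 genes matched the RefSeq table by symbol.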

Additional observations from a re-analysis of the deposited data

Results flagged for a closer look

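Within the 4 HFD+STZ libraries, 8 of the genes named had 1 library far from the other 3, by the gap to its nearest neighbour as a share of the group's range (past Dixon's 95% critical value for 4 samples). For genes chosen without regard to their values, chance puts about 1 in 20 groups past this value. The 104 genes screened were partly chosen for passing without HFD+STZ replicate 1. That choice favours genes where this library lies apart, so the count of 8 cannot be set against chance. Hadha was at 1050 CPM in HFD+STZ replicate 1, against 1970 to 2130 CPM in the others. Col1a1 was at 284 CPM in HFD+STZ replicate 1, against 72.7 to 105 CPM. Hspa1b was at 10.7 CPM in the same library, against 1.74 to 3.04 CPM. Dnaja1 was at 107 CPM there, against 46.4 to 48.8 CPM. Car3 was at 7.54 CPM there, against 0.279 to 0.365 CPM, and Cfd at 2.18 CPM, against 0 to 0.182 CPM. Lgals4 was at 77.8 CPM in HFD+STZ replicate 2, against 34.0 to 35.3 CPM. H2-Aa was at 22.1 CPM in HFD+STZ replicate 2, against 11.8 to 13.4 CPM.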

How the results depend on the processing

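With each of the 11 libraries left out in turn, calls ranged from 1 to 215, higher calls from 1 to 160 and lower calls from 0 to 55. Without chow replicate 3 and HFD+STZ replicate 1 together there were 493 calls, 332 higher and 161 lower. DESeq2 gave 307 (238 higher, 69 lower) and limma voom with quality weights 1954 (1016 higher, 938 lower). Without a filter there were 190 (135 higher, 55 lower), and with the stricter filter 44 (36 higher, 8 lower). With only the groups compared edgeR gave 0 in either direction, and with the code range as a covariate 1, which was higher, and 0 lower. The cause of these shifts was not tested. DESeq2 size factors, upper-quartile scaling, robust moderation and leaving out mitochondrial genes gave 21 to 35 calls.

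With the replicate block edgeR called 2 genes, 1 higher and 1 lower. The labels do not pair the samples by number, and the check of their deviations cannot decide whether they are paired.

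Over 104 genes followed under 23 settings, the 25 called genes gave 319 values that kept direction and call, 256 that kept direction but missed the threshold and 0 that changed sign. The uncalled genes changed sign in 17 values. Without chow replicate 3 Myh6 was at -0.041, Atp2a2 at -0.0093, Myl3 at 0.30 and Nppa at 0.42. Without both libraries Myl3 was at 0.37 and Nppa at 0.50, and with voom at 0.26 and 0.13. With the code range Atp2a2 was at -0.064, Col1a1 at 0.32 and Paics at -0.013. Slc2a4 was above 0 without HFD+STZ replicate 1 (0.080), chow replicate 1 (0.16), chow replicate 2 (0.11) or HFD+STZ replicate 3 (0.051), and Col1a1 without chow replicate 2 (0.077) or HFD+STZ replicate 2 (0.046). With each library left out in turn, Myh6 ranged from -0.041 to 0.52, Atp2a2 from -0.0093 to 0.51, Myl3 from -0.33 to 0.30, Slc2a4 from -0.27 to 0.16, Col1a1 from -0.76 to 0.077 and Nppa from -0.93 to 0.42. The cause was not tested.

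Medians of the fatty acid uptake, glucocorticoid, thioredoxin, heat shock, ketone, antioxidant, autophagy, MHC class II, channel and cell cycle lists, and of several marker lists, moved by more than the spread between libraries when chow replicate 3, HFD+STZ replicate 1 or both were left out. Genes under about 1 CPM, such as Mstn and Olfm2, rest on few counts in chow, and the fit recovered few changes of log2 size 1 in the simulated counts.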
